A study of Mus musculus with 5 samples.

Results

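The genes described here encode the machinery that licenses replication origins, opens and copies DNA at the fork, and reassembles chromatin during S phase. All 38 genes, chosen by name for these functions, were found among the 38924 genes of the deposited table. The RNA-seq libraries came from germinal center B cells of the spleen, sorted by flow cytometry and named as eGFP+ in the series title, of 12-week-old mice on day 7 after immunization with sheep red blood cells. The WT group (3 libraries) carried Cg1-Cre. The DKO group (2 libraries) came from littermates with relbfl/flnfkb2fl/flCg1-Cre, so both groups carried the Cre transgene and only DKO cells carried floxed Relb and Nfkb2. Cg1-Cre is driven by transcription of the IgG1 constant region gene, and deletion therefore follows activation and is not shared by every cell of the mouse. The labels number the libraries but do not say that each came from a separate mouse, so p-values measure the spread between these libraries.

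Before S phase, the origin recognition complex, CDC6 and CDT1 load the ring of MCM2 to MCM7 onto DNA, and CDC45 and the GINS complex later turn that ring into the working helicase. DNA polymerase alpha and primase start each strand, replication factor C loads the sliding clamp PCNA, and the polymerases delta and epsilon extend the strands. Many of these genes are transcribed under the control of E2F factors, and germinal center B cells, above all those of the dark zone, are among the fastest dividing cells of the adult animal.

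Values are normalized counts, reads per gene divided by a scaling factor for each library. Libraries held 34.0 to 57.6 M reads, of which 15.4 to 17.7 M lay outside the mitochondrial genome. Relb, a targeted gene, stood at 136, 171 and 117 (WT replicates 1 to 3) against 56.9 and 10.7 (DKO replicates 1 and 2), and Nfkb2, the other, at 657, 601 and 445 against 298 and 73.5. Every DKO value of both was below every WT value (adjusted p = 0.823 for each, limma), and more transcript was left in DKO replicate 1. Of 10 germinal center B cell markers 9 were detected in every library and Mef2b was listed at 0 in all 5. WT replicate 2 and DKO replicate 1 stood apart in other lymphocyte transcripts: the summed level of 9 T cell markers was 78.2, 991 and 50.9 (WT) against 511 and 116 (DKO), with 1 of the 9 at 0 in WT replicates 1 and 3 (Zap70) and in DKO replicate 2 (Cd3g). Naive B cell markers (6 of 7 in the table) summed to 7815, 22919 and 11804 (WT) against 20150.1 and 9869 (DKO), with none at 0. In these bulk samples fewer cells of a type and less RNA per cell cannot be told apart.

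Promoters are shown for members with an E2F-type word upstream of the start site, since these letters were not used to choose the genes; the words were found in some members only. RefSeq windows (GRCm38.p6, 250 bases before to 50 after the start) were matched for 30 of the 38 members. The words TTTCCCGC, TTTGGCGC, TTTCGCGC and TTTGCCGC were searched on both strands over the whole window. Of the 30 members 12 held at least 1 of them, or 40%, against 2.61% of all 27025 genes with a window. In 8 members a word lay upstream of the start. Of the members with an upstream word, at most 1 of each role group is shown, the one whose level varied most over the libraries. Each sequence runs 5′ to 3′ on the strand of the gene and ends at the base before the start, and capitals mark the E2F-type words on either strand, which overlap in the first sequence. They are Mcm6 on the minus strand (chr1:128359706-128359835), Orc1 on the plus strand (chr4:108579334-108579453), Uhrf1 on the plus strand (chr17:56304108-56304312), Rfc3 on the minus strand (chr5:151651209-151651328) and Pola1 on the minus strand (chrX:93632156-93632313).
Mcm6: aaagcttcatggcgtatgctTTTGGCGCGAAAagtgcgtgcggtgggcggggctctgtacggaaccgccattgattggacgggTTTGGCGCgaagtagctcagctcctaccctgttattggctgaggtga
Orc1: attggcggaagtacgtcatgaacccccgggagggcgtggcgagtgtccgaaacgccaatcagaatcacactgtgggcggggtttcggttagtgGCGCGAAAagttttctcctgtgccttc
Uhrf1: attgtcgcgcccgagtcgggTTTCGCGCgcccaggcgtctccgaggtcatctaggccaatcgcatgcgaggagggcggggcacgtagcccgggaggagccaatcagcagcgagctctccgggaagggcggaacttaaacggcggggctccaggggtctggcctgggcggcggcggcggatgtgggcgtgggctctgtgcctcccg
Rfc3: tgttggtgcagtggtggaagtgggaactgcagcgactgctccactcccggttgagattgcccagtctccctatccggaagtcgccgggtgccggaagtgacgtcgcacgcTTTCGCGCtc
Pola1: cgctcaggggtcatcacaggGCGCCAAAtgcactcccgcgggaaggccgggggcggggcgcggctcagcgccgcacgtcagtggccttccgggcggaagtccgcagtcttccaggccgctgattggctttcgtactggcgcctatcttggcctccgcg
The Mcm6 window held 3 matches upstream of the start, the one nearest to it beginning 47 bases before it. In Orc1, Uhrf1, Rfc3 and Pola1 the single match began 27, 185, 10 and 138 bases before the start. The CCAAT box, searched as CCAAT on both strands, was found in 20 of the 30 members, or 66.7%, against 41.1% of all genes. The kappaB consensus, to which NF-kappaB factors bind, was found in 5 of the 30 (Chaf1b, Mcm7, Pcna, Rfc4 and Uhrf1), or 16.7%, against 12.6% of all genes. A match is a description of these letters and no site of binding. No window was matched for Ccne2, Gins1, Gins2, Gmnn, Mcm4, Pole, Prim2 and Rfc2.

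The comparison of DKO with WT asks whether transcripts of the replication machinery depend on RELB and the p52 product of Nfkb2. No member's difference between the genotypes passed the test against the spread of the libraries. All 38 members passed the minimum mean value of 10, and 29 had a lower and 9 a higher mean log2 level in DKO, where 50% of the 13242 genes tested were lower. The median log2 fold change of the members was −0.17, against 0.00 for all genes tested, and single members ran from −0.66 to 0.64. In limma's two-sided test on log2(value + 1), with Benjamini-Hochberg adjustment over all genes, 0 members passed 0.05, and the background of calls was 0.00% of genes. The smallest adjusted p of a member was 0.836. At an unadjusted p under 0.05 there were also 0 members, where 2.37% of all genes were lower and 3.69% higher, 6.06% in all. EdgeR on recovered reads called 0 members (0.00% of all genes), and 0 at an unadjusted p under 0.05 (5.65%). DESeq2 called 0 members as well (0.0982% of all genes lower and 0.121% higher), and 0 at an unadjusted p under 0.05 (6.78%). DKO and WT values overlapped in each of the 38 members as deposited, whereas they did not overlap in 23.4% of all genes (11.0% lower and 12.5% higher). The count of members lower in DKO rested on DKO replicate 1: without it 10 of 38 were lower and the median was 0.13, and without DKO replicate 2 it was 34 of 38 with a median of −0.38.

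**Figure D1:**
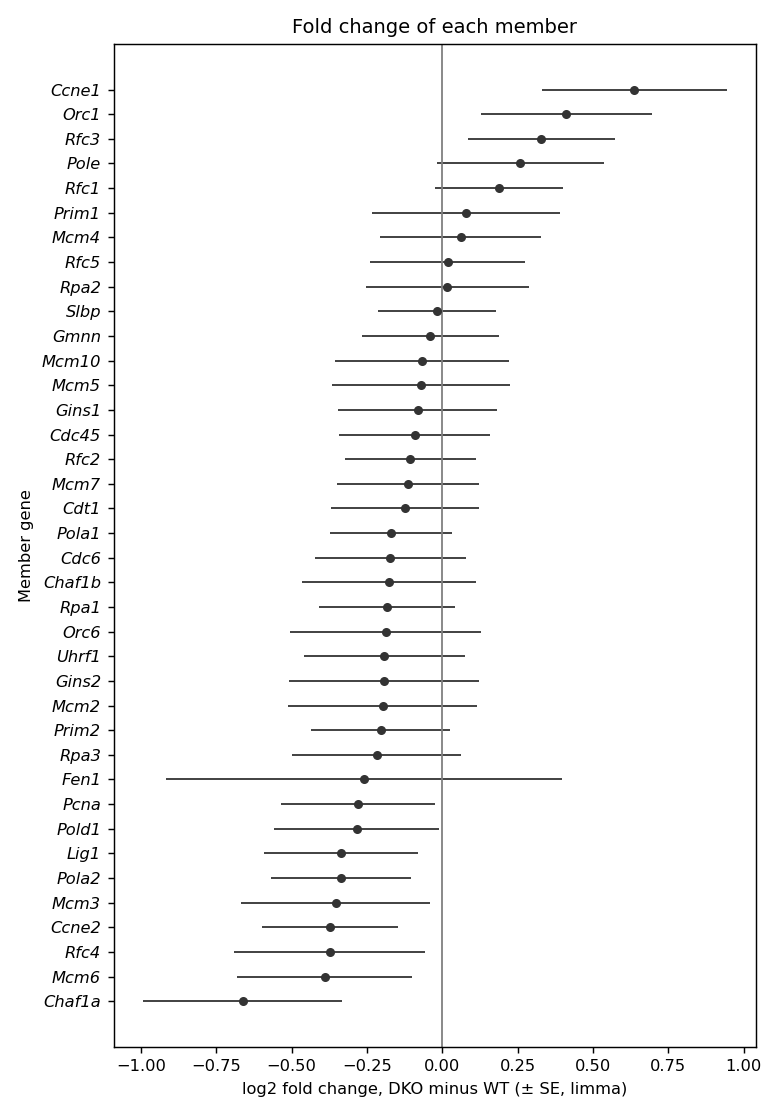
Log2 fold change of each member, DKO minus WT, with its standard error from limma (points and bars; 3 WT and 2 DKO libraries). The changes run from −0.66 for Chaf1a to 0.64 for Ccne1, and most bars reach or cross 0.

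Libraries of the same genotype differed widely from each other in these genes. In 27 of 38 members the lowest value was that of DKO replicate 1, which was the lowest library for 21.7% of all genes tested. WT replicate 2 was the lowest in 9 further members (20.5% of all genes), and WT replicate 1 in Ccne1 and Rfc2. DKO replicate 1 lay below DKO replicate 2 in 36 of 38 members (48.4% of all genes), with a median log2 difference of −0.51 against 0.02 for all genes. In 16 members, against 10.8% of all genes, this gap was wider than 1.5-fold. WT replicate 2 lay below both other WT libraries in 32 of 38 (35.1% of all genes), with a median log2 difference of −0.41 from the mean of WT replicates 1 and 3. These 2 libraries held the 2 lowest values in 30 of 38 members (15.9% of all genes). They are the libraries with the higher T cell and naive B cell marker sums given above. They also had the lowest share of reads from mitochondrial rRNA, 51.6% in WT replicate 2 and 47.0% in DKO replicate 1, against 62.4% and 70.9% in WT replicates 1 and 3 and 60.6% in DKO replicate 2. When the T cell marker level entered the fit as a covariate, 26 of 38 members were lower in DKO, against 50.02% of all genes. In that fit the median log2 fold change of the members was −0.09, against −0.00024 for all genes. There 0 members passed in limma, where 1 of all 13242 genes did. The part of the naive B cell transcripts and of the mitochondrial rRNA share in these values was not tested.

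The upper end was held by WT replicate 3, the highest library in 20 members (23.0% of all genes), and by DKO replicate 2, the highest in 11 (13.5%). WT replicate 1 was the highest in 5 (20.1%), WT replicate 2 in Rpa3 alone (21.3%) and DKO replicate 1 in Ccne1 alone (22.1%). DKO replicate 2, which had the fewest Relb and Nfkb2 reads, lay below every WT library in 0 of 38 members, where this held for 21.5% of all genes, and above every WT library in 11 (21.5%). DKO replicate 1, with more Relb and Nfkb2 transcript left, lay below every WT library in 27 of 38 (26.4%). It also had higher T cell and naive B cell marker sums than DKO replicate 2. Which cells held its Relb and Nfkb2 transcript was not tested. Each of these statements sets single libraries side by side, and none has a replicate check.

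**Figure D2:**
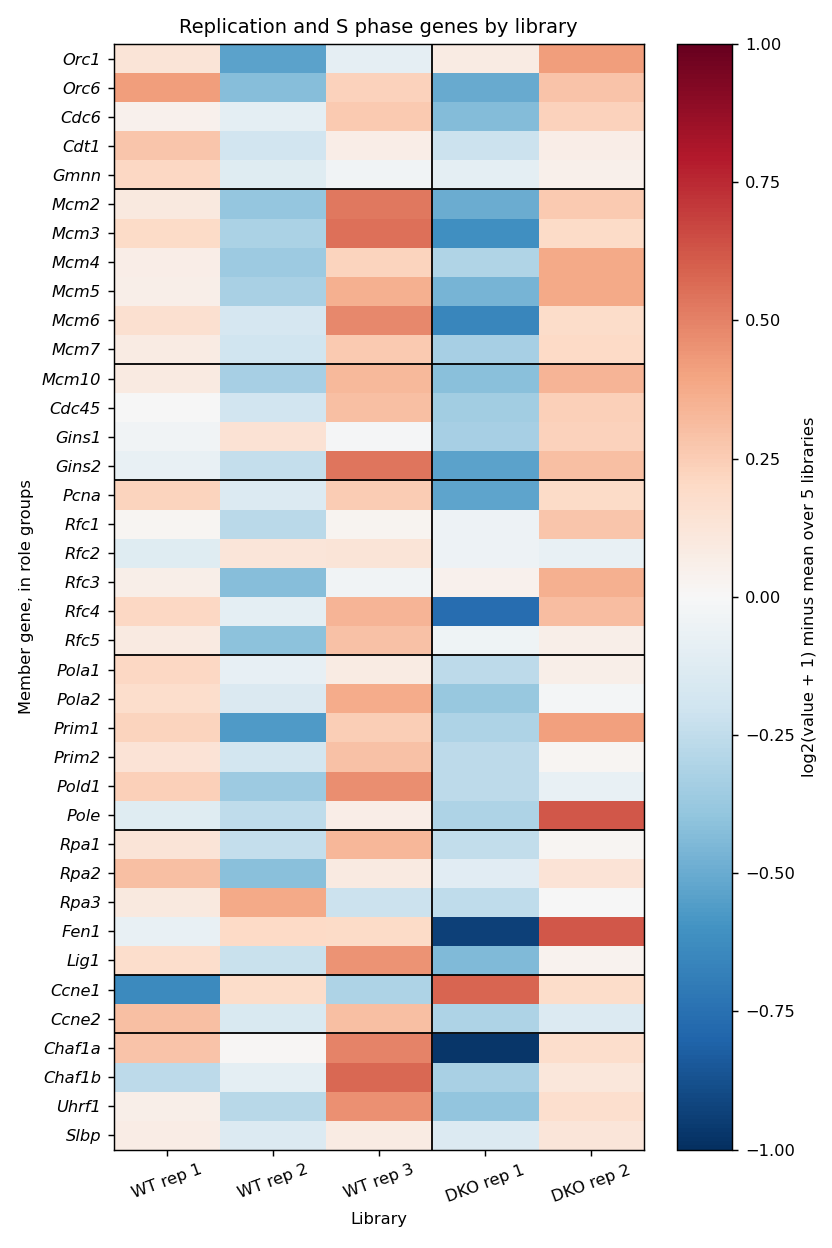
Heat map of the 38 members (rows, in role groups from origin licensing at the top to chromatin at the bottom) in the 5 libraries (columns), coloured by log2(value + 1) minus the mean over the libraries; the scale ends at −1 and 1. WT rep 2 and DKO rep 1 are blue in most rows, and WT rep 3 and DKO rep 2 are red.

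Among the licensing genes, 4 of 5 had lower means in DKO (median log2 fold change −0.12). Orc1, the largest subunit of the origin recognition complex, went the other way. It was at 369, 232 and 316 normalized counts (WT) against 356 and 449 (DKO), with a log2 fold change of 0.41 ± 0.28 (SE, adjusted p = 0.877, limma). The groups overlapped through WT replicate 1, which lay above DKO replicate 1. With libraries scaled to equal totals outside the mitochondrial genome they no longer overlapped, as in 23.0% of all genes under that scaling. Orc6, another subunit, was at 1701, 947 and 1493 (WT) against 895 and 1546 (DKO), so that the replicates of each genotype spanned nearly the same range. Cdc6, the loader of the MCM ring, was at 1127, 1021 and 1309.8 against 807 and 1282. Cdt1, its partner in loading, was at 561, 404 and 485 against 399 and 485. Gmnn, the inhibitor of CDT1, varied least in this group, at 566, 451 and 478 against 458 and 508.

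In all 6 genes of the MCM ring WT replicate 2 and DKO replicate 1 held the 2 lowest values, with DKO replicate 1 the lowest in 5 and WT replicate 2 in Mcm4. Mcm6 was at 6444, 5122 and 8023 normalized counts (WT) against 3674 and 6535 (DKO), a log2 fold change of −0.39 ± 0.29 (SE, adjusted p = 0.877, limma). Mcm3 was at 4901, 3435 and 6271 against 2798 and 4886 (−0.35 ± 0.31, adjusted p = 0.891). In both, DKO replicate 1 was the lowest of all libraries and DKO replicate 2 lay inside the WT range. Mcm2 was at 4363, 3122 and 5895 against 2892 and 4889, and Mcm5 at 2108, 1622 and 2593 against 1469 and 2641. Mcm4 was the ring gene with a higher mean in DKO, at 6028, 4489 and 6718 against 4672 and 7475. Mcm7 was at 2582, 2123 and 2928 against 1937 and 2806. The directions of these small differences depended on the library left out, and without DKO replicate 1 all 6 were higher in DKO.

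**Figure D3:**
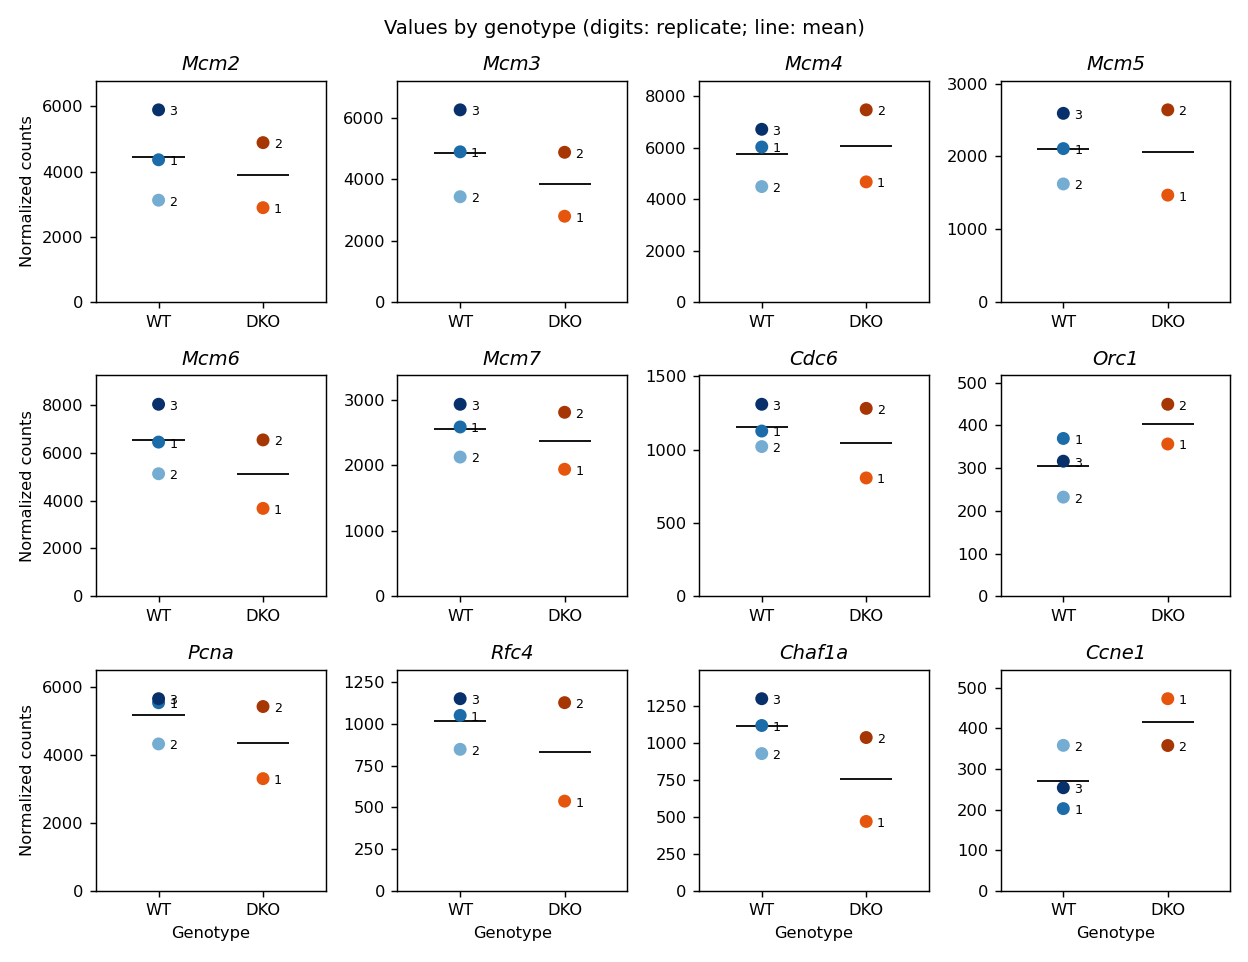
Normalized counts (vertical axis, from 0) of the 6 MCM ring genes and 6 further members in each WT and DKO library; digits give the replicate and lines the group mean. In the 6 MCM panels the points of WT replicate 2 and DKO replicate 1 are the lowest 2, and in Ccne1 DKO replicate 1 is the highest.

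The products of the ring genes act in equal numbers, and ratios between them within a library do not depend on the scaling factor of that library. In 9 of the 15 pairs of ring genes the ratio did not overlap between the genotypes, where this held for 25.7% of the 703 pairs of members and for 23.4% of all pairs of genes tested. Pairs share genes and libraries, this view was chosen after the values were seen, and no test was made of it. The ratio of Mcm5 to Mcm6 was 0.327, 0.317 and 0.323 (WT) against 0.400 and 0.404 (DKO). The exact binomial 95% intervals, which cover counting error only, reached up to 0.344 in WT and down to 0.377 in DKO. The ratio of Mcm4 to Mcm6 was 0.936, 0.877 and 0.837 (WT) against 1.27 and 1.14 (DKO). Its intervals reached up to 0.970 in WT and down to 1.11 in DKO. Mcm3 to Mcm5 stood at 2.33, 2.12 and 2.42 against 1.91 and 1.85. For this pair the intervals overlapped between the genotypes, from 1.99 in WT replicate 2 and up to 2.02 in DKO replicate 1. The ratio of Mcm2 to Mcm5, at 2.07, 1.92 and 2.27 against 1.97 and 1.85, did overlap. In both DKO libraries Mcm4 and Mcm5 were higher relative to Mcm6 than in any WT library.

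**Figure D4:**
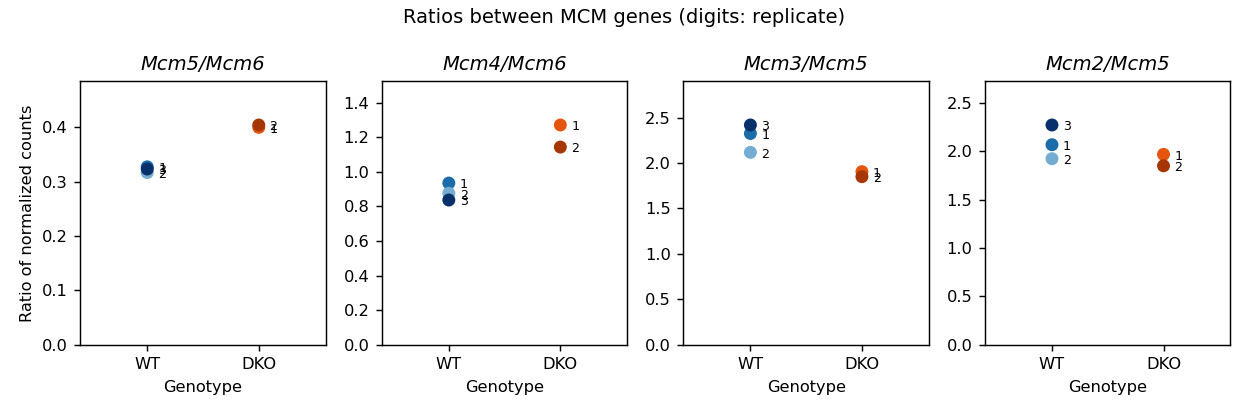
Ratios of normalized counts (vertical axis, from 0) between MCM ring genes in each WT and DKO library; digits give the replicate. For Mcm5/Mcm6 the WT points lie at 0.317 to 0.327 and the DKO points at 0.400 and 0.404, whereas for Mcm2/Mcm5 the groups overlap.

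The genes that turn the loaded ring into a helicase had lower means in DKO in 4 of 4 (median −0.09), all with DKO replicate 1 as the lowest library. Cdc45 was at 1178, 1034 and 1458 normalized counts (WT) against 926 and 1395 (DKO). Mcm10, which helps to activate the helicase, was at 1167, 871 and 1374 against 821 and 1389. The GINS subunit gene Gins2 was at 1119, 997 and 1707 against 812 and 1448, a log2 fold change of −0.19 ± 0.31 (SE, adjusted p = 0.937, limma), and Gins1 at 328, 370 and 333.5 against 267 and 394. Gins1 was the member of this group that was not low in WT replicate 2. In GENCODE M21, 67.3% of the exon length of Gins2 overlaps Gse1 on the other strand, and the use of strand in counting is not given in the sources used here, so its reads are uncertain.

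The clamp and its loader were mixed in direction, with 3 of 6 genes lower and 3 higher in DKO. Pcna, the clamp itself, was at 5529, 4318 and 5648 normalized counts (WT) against 3297 and 5418 (DKO) (log2 fold change −0.28 ± 0.25 (SE), adjusted p = 0.896, limma). Its reads may include those of 2 named pseudogenes, Pcna-ps1 and Pcna-ps2. Rfc4 was at 1050.2, 847 and 1150.3 against 537 and 1127, which made DKO replicate 1 the lowest by a wide margin and placed DKO replicate 2 among the WT libraries. Rfc1, the large subunit of the loader, was at 8349, 6842 and 8394 against 7947 and 10009, and Rfc3 at 626, 448 and 587 against 618 and 767 (0.33 ± 0.24, adjusted p = 0.877). Rfc3 overlapped through WT replicate 1 alone. With quantile scaling or equal totals outside the mitochondrial genome its groups no longer overlapped, as in 23.3% and 23.0% of all genes. Rfc5 was at 704, 499 and 813 against 644 and 691, and its log2 fold change of 0.02 changed sign with TMM scaling, edgeR and DESeq2. Rfc2 was nearly flat, at 485, 575 and 576 against 509 and 501.

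Among polymerase and primase genes, 4 of 6 were lower in DKO (median −0.19). Pola1, the catalytic subunit of DNA polymerase alpha, was at 4994, 4099 and 4591 normalized counts (WT) against 3624 and 4508 (DKO). Pola2, its accessory subunit, was at 1261, 1012 and 1448 against 858 and 1101, a log2 fold change of −0.34 ± 0.23 (SE, adjusted p = 0.877, limma). Both kept DKO replicate 2 inside the WT range. Pole, the catalytic subunit of polymerase epsilon on the leading strand, was at 2488, 2275 and 2829 against 2189 and 4155, so that its DKO libraries were at once the lowest and the highest of the 5. Pold1, its counterpart in polymerase delta, was at 855, 563 and 998 against 602 and 687, with WT replicate 2 the lowest. The primase genes differed from each other, with Prim1 at 2597, 1502 and 2640 against 1791 and 2950.3 and Prim2 at 891, 715 and 997 against 677 and 823 (−0.20 ± 0.23). WT replicate 2 was the lowest library for Prim1 and DKO replicate 1 for Prim2.

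Of the genes for single-stranded DNA binding and Okazaki fragment joining, 4 of 5 were lower in DKO (median −0.22). Lig1, the ligase that seals Okazaki fragments, was at 7476, 5648 and 9011 normalized counts (WT) against 4865 and 6779 (DKO), a log2 fold change of −0.34 ± 0.26 (SE, adjusted p = 0.877, limma). Rpa1, the large subunit of the single-stranded DNA binding complex, was at 3314, 2559.9 and 3811 against 2558 and 3076. In both genes DKO replicate 1 was the lowest library and DKO replicate 2 lay inside the WT range. Rpa2 was at 644, 391 and 557 against 482 and 575, and its log2 fold change of 0.02 changed sign with TMM scaling, edgeR and DESeq2. Rpa3, at 295, 360.1 and 237 against 231 and 275, was the one member with its highest value in WT replicate 2. Fen1, the flap nuclease of Okazaki fragments, was listed at 24.6, 29.9 and 29.8 against 13.1 and 40.5, from 15 to 49 reads a library. GENCODE M21 places 84.2% of its exon length over Gm10143 and Tmem258 on the other strand, so its level is uncertain.

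The E-type cyclins, which activate CDK2 at the start of S phase, gave opposite signs. Ccne1 was at 202, 358.0 and 254 normalized counts (WT) against 473 and 357.6 (DKO), and its log2 fold change of 0.64 ± 0.31 (SE) had the smallest p of all members (unadjusted 0.0679, adjusted 0.836, limma). The groups touched only because WT replicate 2 reached the level of DKO replicate 2. With quantile scaling or equal totals outside the mitochondrial genome they did not overlap, as in 23.3% and 23.0% of all genes. Ccne1 was the only member with its highest value in DKO replicate 1, and it was also higher in WT replicate 2 than in the other WT libraries. Ccne2 was at 1246, 908 and 1247 against 816 and 921 (−0.37 ± 0.23, adjusted p = 0.871). Its DKO values lay below WT replicates 1 and 3, with WT replicate 2 between them.

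The chromatin genes were lower in DKO in 4 of 4 (median −0.18). Chaf1a, the large subunit of the histone chaperone that follows PCNA, was at 1119, 929 and 1300.2 normalized counts (WT) against 469 and 1037 (DKO). Its log2 fold change of −0.66 ± 0.33 (SE, unadjusted p = 0.0761, adjusted p = 0.851, limma) was the lowest of the members. It was −0.092 without DKO replicate 1, where Ccne2 was lower at −0.28, and −1.23 without DKO replicate 2. DKO replicate 1 was the lowest library and DKO replicate 2 lay inside the WT range. In GENCODE M21, 52.5% of its exon length overlaps Ubxn6 on the other strand, so its level is uncertain. Chaf1b, the next subunit, was at 681, 763 and 1216 against 653 and 883. Uhrf1, which reads hemimethylated DNA behind the fork, was at 3443, 2733 and 4538 against 2516 and 3722. Slbp, the binding protein of histone mRNA stem loops, was among the steadiest members, at 3776, 3258 and 3804 against 3255 and 3898 (−0.02 ± 0.20).

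Levels between genes were set side by side only per kilobase of annotated exon (GENCODE M21, all isoforms merged), as the mean over the 5 libraries. Pcna was the highest at 2017 normalized counts per kilobase, followed by Mcm4 at 1637, Lig1 at 1583, Rfc1 at 1380 and Mcm6 at 1277. The ring genes spanned 523 for Mcm5 to 1637 for Mcm4. At the lower end were Fen1 at 11.4, with the overlap given above, Rfc2 at 83.9 and Orc1 at 99.1. The merged lengths enter this order, with 6.303 kb for Rfc2 and 3.589 kb for Mcm4. Which isoforms were transcribed was not tested. The ranges over libraries of neighbours among the 5 highest overlapped, as did those of Rfc2 and Orc1, while Fen1, at most 16.7, lay below Rfc2, at least 76.9. The highest library exceeded the lowest by up to 2.24-fold for a ring gene (Mcm3) and by 2.77-fold for Chaf1a. The widest range of a member was 3.08-fold for Fen1, which had 15 to 49 reads a library.

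Each library was also centred on the mean log2 level of the 38 members, a view chosen after the values were seen. Uncentred, the median spread over the libraries (SD of log2 values) was 0.33 for members and 0.37 for all genes. Centred, it was 0.20 for members. Removing the members' own mean takes out what they share, so part of this fall is built in. On that relative scale 5 members did not overlap between the genotypes as higher in DKO (Orc1, Mcm4, Rfc1, Rfc3 and Pole), where 10.1% of all genes did so on the same scale. Another 6 did not overlap as lower in DKO (Mcm6, Pcna, Pola2, Lig1, Ccne2 and Chaf1a), against 5.75% of all genes. Subtracting the members' mean also moves every other gene by the members' own pattern over the libraries. The centred shares of all genes are therefore no like background for the members. Uncentred, 12.5% of all genes did not overlap as higher and 11.0% as lower, and 0 members did so. The log2 level of Orc1 minus that mean was −1.85, −2.23 and −2.21 in WT and −1.48 and −1.66 in DKO. Mcm6 lay 2.28, 2.23 and 2.45 above it in WT and 1.88 and 2.20 above it in DKO. Centring on the members fixes their average at 0 in each library, so these values show proportions within the set and no change of the set.

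Members with and without an E2F-type word in the promoter window were set side by side, without a test. In the 12 with a match the median log2 difference of DKO replicate 1 from DKO replicate 2 was −0.51, and in the 18 without it was −0.51. The median log2 difference of WT replicate 2 from the mean of WT replicates 1 and 3 was −0.51 with a match and −0.38 without. The median log2 fold change between genotypes was −0.17 with a match and −0.18 without.

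Another 40 genes of the replication pathway were chosen by function. Of these 22 were lower and 18 higher in DKO, their median log2 fold change was −0.02, and 0 were called in limma. The groups did not overlap in 1 of the 40, where this held for 23.4% of all genes. It was Cdc7, the kinase that fires licensed origins, at 758, 799 and 665 normalized counts (WT) against 1005 and 1112 (DKO) (log2 fold change 0.52 ± 0.21 (SE), adjusted p = 0.823, limma). Ticrr, which helps to load CDC45, had a log2 fold change of 0.43, Pold2 of polymerase delta −0.40 and the fork protection gene Tipin −0.37, none of them passing. WT replicate 2 and DKO replicate 1 held the 2 lowest values in 24 of these 40 genes. Of 13 genes for E2F factors and pocket proteins 5 were lower in DKO and 0 were called; E2f3, an activator, was at 740, 581 and 636 against 747 and 931, and E2f2, another, at 3865, 3242 and 4439 against 3182 and 3119. Both had DKO values outside the WT range, in opposite directions. Tfdp2, a partner of E2F, also did not overlap, at 506, 550 and 392 against 373 and 365. These 3 of 13 stand beside 23.4% of all genes without overlap. The pocket protein gene Rbl1 had a log2 fold change of 0.24.

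Among mitosis genes WT replicate 2 and DKO replicate 1 held the 2 lowest values in 16 of 20. Their median log2 fold change was −0.12, with 16 lower in DKO and 0 called in limma. The median deviation from the mean over libraries was −0.26 in WT replicate 2 and −0.30 in DKO replicate 1 for mitosis genes, against −0.20 and −0.32 for the replication genes and 0.01 and 0.03 for all genes tested. The replication genes had their highest median deviation in WT replicate 3, at 0.26, and mitosis genes also there, at 0.23. The mitosis list held 2 of 20 genes at an unadjusted p under 0.05, both lower in DKO, where 2.37% of all genes were lower at that p. They were the kinetochore genes Cenpe, at 20028, 12717 and 10178 normalized counts (WT) against 8343 and 6937 (DKO), and Cenpf, at 10171, 6305 and 3363 against 3489 and 2553. Cenpa, the centromeric histone, and the spindle checkpoint kinase gene Ttk had log2 fold changes of 0.33 and −0.30. The difference between the lists was not tested.

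**Figure D5:**
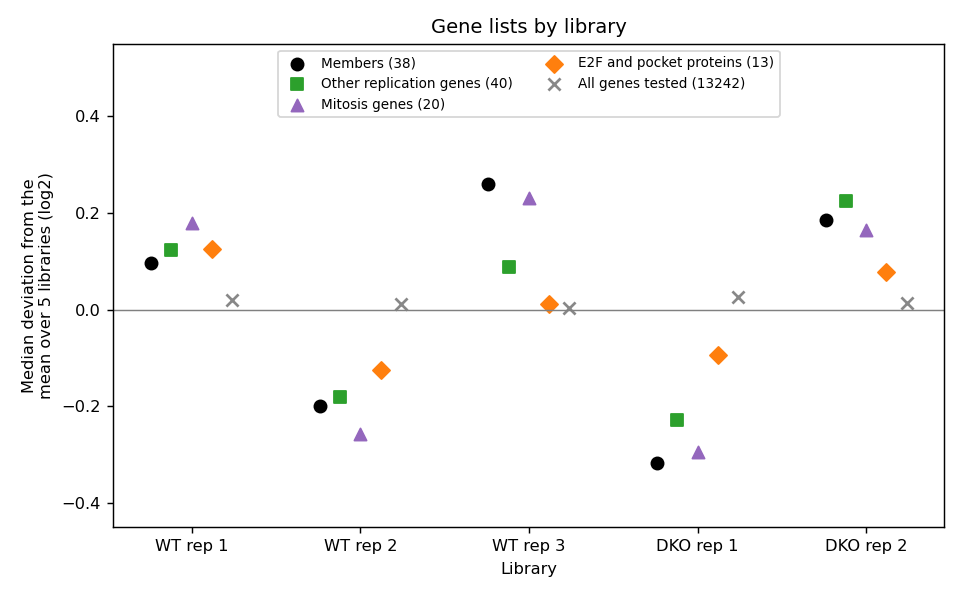
Median deviation of each gene list from its mean over the 5 libraries (log2, vertical axis) in each library (horizontal axis); numbers in the key are genes tested. Replication, other replication and mitosis genes lie below 0 in WT rep 2 and DKO rep 1 and above 0 in the other libraries, and all genes tested stay near 0.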

How the data were processed

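Per the labels' protocols, RNA of the sorted cells was amplified (NuGEN Ovation) before sequencing. Build mm9, TopHat2 2.0.4, CASAVA 1.8.2 and Cufflinks 2.0.2 are listed per the submitters' processing notes. How reads were counted, with which annotation and use of strand, and how they were scaled is not given in the sources used here. After Fen1, Gins2 and Chaf1a, exon overlap with other genes was largest in Ccne2 (17.4%), Rfc2 (15.1%), Rfc4 (12.7%) and Mcm7 (12.6%). The part of such overlap in their values was not tested. One table was deposited by the authors, with a normalized signal for each of 38924 genes in 5 libraries. These values are whole multiples of a step per library (tolerance 0.01; 100% of values above 0, and 99.99% in DKO replicate 2), and dividing by it gave whole reads.

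Genes with a mean value of at least 10 (13242) were tested with limma 3.58.1 (R 4.3.3) on log2(value + 1), with a mean-variance trend, Benjamini-Hochberg adjustment over all genes and a threshold of 0.05. Residual degrees of freedom were 3. The pseudocount shrinks fold changes of low genes. Alternatives were the pseudocount, the minimum value, TMM, quantile and non-mitochondrial scaling, a T cell marker covariate, the replicate number as a block, libraries left out, and tests of the recovered reads (DESeq2 1.42.0, edgeR 4.0.16). The fit was tested on simulated data.

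Members and lists were chosen with earlier results of these data known. Values by library are given for the 10 members with the smallest p, the highest member of each role group and, by later choice, the others. Of each further list the up to 4 genes with the smallest p are named. Ratios and the centring on the members' mean were added after seeing the data. Promoter windows are from another build than mm9.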

Additional observations from a re-analysis of the deposited data

How the results depend on the processing

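Under all alternatives that kept more than 1 library in each group, 0 members passed the adjusted threshold. Among all genes tested, 36 passed with the replicate number as a block and 29 with DESeq2. With the T cell marker covariate 1 gene passed, and without WT replicate 2 also 1. In the other such fits 0 genes passed. Pseudocounts of 0.5 and 4 and no minimum value changed no direction of a member, nor did a minimum of 50, which Fen1 did not reach. The members' median stayed below 0 with each scaling, from −0.10 to −0.19. With TMM scaling Rfc5 and Rpa2 turned to −0.0054 and −0.0057, with edgeR to −0.016 and −0.013 and with DESeq2 to −0.015 and −0.011. With quantile scaling 2 members (Ccne1 and Rfc3) no longer overlapped between the genotypes (23.3% of all genes). With equal totals outside the mitochondrial genome 3 did not (with Orc1; 23.0% of all genes), 1 (Ccne1) had an unadjusted p under 0.05 (6.33% of all genes), and Gmnn, Mcm10 and Slbp turned to 0.030, 0.0037 and 0.053. With the T cell marker covariate Mcm5, Mcm10 and Slbp turned to 0.024, 0.026 and 0.018. With the replicate number as a block, which leaves WT replicate 3 out of the comparison, 22 members were lower. Mcm2, Mcm5, Mcm10, Cdc45, Gins2, Chaf1b and Slbp turned to 0.027, 0.091, 0.083, 0.042, 0.038, 0.075 and 0.022. The numbers mark no stated pairing. The deviations of same-numbered libraries from their group means had correlations of 0.005 and −0.28. With 2 DKO libraries these deviations mirror each other, so WT replicate 2 had 0.28 with DKO replicate 1. The correlations therefore cannot decide whether libraries were paired. Leaving out libraries moved the members lower in DKO from 10 (without DKO replicate 1) to 34 (without DKO replicate 2), their median from −0.38 to 0.13 (−0.06 without WT replicate 3, −0.04 without both WT replicate 2 and DKO replicate 1), those at an unadjusted p under 0.05 from 0 to 3 (without DKO replicate 2, 3.76% of all genes) and those without overlap from 1 (without WT replicate 3, 35.7% of all genes) to 28 (without DKO replicate 2, 53.0%). A group left with 1 library is assumed to vary like the other. Over these fits the log2 fold changes that changed sign ran from −0.58 to 0.21 for Orc6, −0.51 to 0.16 for Cdc6, −0.26 to 0.017 for Cdt1, −0.11 to 0.056 for Gmnn, −0.58 to 0.18 for Mcm2, −0.76 to 0.048 for Mcm3, −0.28 to 0.40 for Mcm4, −0.49 to 0.35 for Mcm5, −0.81 to 0.025 for Mcm6, −0.38 to 0.15 for Mcm7, −0.45 to 0.31 for Mcm10, −0.39 to 0.20 for Cdc45, −0.36 to 0.25 for Gins1, −0.61 to 0.22 for Gins2, −0.64 to 0.079 for Pcna, −0.91 to 0.16 for Rfc4, −0.18 to 0.17 for Rfc5, −0.28 to 0.44 for Prim1, −0.20 to 0.72 for Pole, −0.19 to 0.17 for Rpa2, −0.37 to 0.054 for Rpa3, −1.04 to 0.56 for Fen1, −0.39 to 0.075 for Chaf1b, −0.47 to 0.091 for Uhrf1, −0.15 to 0.11 for Slbp. Chaf1a kept its sign, from −1.23 to −0.092. The cause of these changes was not tested beyond the libraries named. With 15 to 49 reads a library, counting error limits Fen1; the other members had at least 189.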
